A study of Mus musculus with 7 samples.

Results

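Complexes III and IV of the respiratory chain, the electron carrier cytochrome c and the ATP synthase were followed through 36 nuclear genes that encode their subunits. A gene entered when a probe of the array carried its symbol, and no other, in the platform annotation, which held for 31 of the 36 (8 of 10 for complex III with cytochrome c, 10 of 11 for complex IV and 13 of 15 for ATP synthase). Where a gene had several probes, the one with the highest average signal stood for it. The 31 genes all passed the filter on dim genes, out of 21515 genes with a symbol and 16136 tested. Uqcrb, Uqcr10 and Cox6c had only probes that also carry the symbol of a predicted gene and were left out, and Atp5l was not analysed here. Atp5f1, subunit b of ATP synthase, stands in the annotation as Atp5pb and is described apart from the 31.

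The RNA came from germinal centre B cells, the dividing, antibody-mutating B cells that form in spleen after a T cell-dependent antigen. Splenic cells positive for B220, CD95 and GL7 were sorted 7 days after sheep red blood cells were given into the peritoneum, and total RNA was hybridised to 1 Affymetrix whole-transcript array per sample. There were 4 arrays of wild-type (WT) mice and 3 of mice labelled RRas2-deficient, and both groups were immunized alike. R-Ras2 is the small GTPase encoded by Rras2. The title of the series ties R-Ras2 to the energy demand of B cells, which is the question these subunit genes bear on. The labels name the arrays biological replicates without naming animals, and do not give strain, age or how the deficiency was made. One label field of the deficient samples writes Rras in place of RRas2, whereas the title, source and genotype fields write RRas2.

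Complex III passes electrons from ubiquinol to cytochrome c, complex IV passes them from cytochrome c to oxygen, and both build the proton gradient across the inner mitochondrial membrane. ATP synthase lets protons flow back through its membrane part, Fo, whose ring of c subunits turns the shaft inside the catalytic head, F1. Each of these assemblies except cytochrome c also holds subunits made from mitochondrial DNA, whose 6 genes for complexes III and IV and ATP synthase were not analysed here. Activated B cells raise mitochondrial mass and respiration as they grow and divide.

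The arrays themselves fell into 2 sets that cut across genotype, and this division marks nearly every value below. The interquartile range of an array's 25349 log2 intensities was 2.37 to 2.49 on 3 narrower arrays (WT replicates 1 and 2, RRas2-deficient replicate 2) and 2.69 to 2.91 on 4 wider ones (WT replicates 3 and 4, RRas2-deficient replicates 1 and 3). No label names a batch, day or slide for them. Among 7 tested markers of germinal centre B cells, 6 read lower on all narrower than on all wider arrays, as 26.9% of all tested genes and 62.4% of the brightest 25% did, and the mean of the 7 was 9.31 to 9.39 against 10.02 to 10.45. Of the other cell types, 5 T cell markers had means of 4.04 to 4.63 on narrower and 3.76 to 4.03 on wider arrays, 6 myeloid markers 4.91 to 4.95 and 4.44 to 4.98, and 5 plasma cell markers 6.75 to 7.13 and 6.95 to 7.40. The erythroid marker Slc4a1, the single one tested, read 4.95 to 5.12 and 4.65 to 4.84. The plasma cell mean joins unlike genes, with 2 lower (Jchain and Xbp1) and 1 higher (Irf4) on every narrower array and 2 that overlapped. All 5 plasma cell markers were lower in deficient cells (median -0.27), as 48.3% of all tested genes were. No marker passed the test between genotypes, and the part that cell mixture plays in the values below was not tested. In sorted bulk RNA, fewer cells of a type and less RNA per cell cannot be told apart. Rras2 read between 6.68 and 7.12 on the deficient arrays and between 7.13 and 8.66 on the WT arrays, a difference of -0.99 ± 0.39 (SE) that did not pass (limma adjusted p = 1.00). Limma fits that took in the array set or the interquartile range, described below, gave -1.13 ± 0.20 and -0.91 ± 0.15 (SE). In these fits Rras2 did not pass either (limma adjusted p = 0.296 and 0.65). How the allele was altered is not given, so it is unknown whether the probe lies inside the removed sequence. Whether its signal reports the deficiency was not tested.

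Promoter sequences are shown for 5 of the genes because nuclear subunit genes are known to share the binding sites of a few factors, among them NRF1 and the ETS protein GABPA. The 5 are the 3 genes of subunit c, cytochrome c and Atp5k, the gene of lowest p in the plain fit. Of the subunit c genes, Atp5g1, which was dim, ran against the others by array. The sequences are RefSeq's for build GRCm38.p6, and each ends with the last base before the annotated start of transcription. Capitals mark matches to the NRF1 motif GCGCATGCG on either strand.

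Cycs, cytochrome c, chr6:50566570-50566689, minus strand: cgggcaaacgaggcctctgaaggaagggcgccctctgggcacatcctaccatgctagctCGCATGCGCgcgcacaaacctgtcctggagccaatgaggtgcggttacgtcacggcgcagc
Atp5g2, subunit c, chr15:102671048-102671167, minus strand: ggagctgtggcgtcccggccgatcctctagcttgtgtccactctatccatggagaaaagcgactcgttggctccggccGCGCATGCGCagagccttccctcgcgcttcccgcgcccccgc
Atp5k, subunit e, chr5:108434400-108434519, minus strand: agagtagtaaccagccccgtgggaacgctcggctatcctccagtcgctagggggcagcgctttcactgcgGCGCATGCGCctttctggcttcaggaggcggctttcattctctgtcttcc
Atp5g1, subunit c, chr11:96075632-96075751, minus strand: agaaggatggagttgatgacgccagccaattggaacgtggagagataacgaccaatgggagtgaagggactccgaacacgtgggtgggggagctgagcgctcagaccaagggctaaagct
Atp5g3, subunit c, chr2:73911327-73911446, minus strand: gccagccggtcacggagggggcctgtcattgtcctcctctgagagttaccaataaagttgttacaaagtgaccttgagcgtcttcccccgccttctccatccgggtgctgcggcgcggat

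A promoter of 250 bases before to 50 after the start was at hand for 26 of the 31 genes. The NRF1 motif was present in 6 of the 26 (23.1%): Cycs, Atp5g2, Atp5k, Cox6a1, Uqcrc1 and Uqcr11. It was present in 1.75% of all 32851 promoters and for 3.28% of the 12612 tested genes with a promoter. The ETS motif CCGGAAG was present for 9 of 26 (34.6%, against 8.86% of all promoters and 15.8% of tested genes), including Cox6b1, Cox8a, Atp5h and Uqcrh. The YY1 motif AANATGGCG was present for 3 (11.5%, against 2.38% and 4.48%), which were Atp5b, Atp5j and Atp5j2. The SP1 motif GGGCGG was present for 9 (34.6%, against 35.7% and 59.7%). Both strands were searched, matches of different motifs overlapped in 0 places in these promoters, and the NRF1 motif can overlap its own reverse complement. A match describes letters in the window and does not show binding.

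By genotype, the 31 genes lay on both sides of 0. Their log2 differences, RRas2-deficient minus WT, ran from -0.32 for Cox5b to 0.42 for Cyc1, with 14 higher, 17 lower and a median of -0.012, where the median over all tested genes was 0.0049 and 48.3% of them were lower. None of the 31 passed an adjusted p of 0.05 in limma, where 2 of 16136 genes (0.0124%) did, and 0 of the 31 had an unadjusted p under 0.05, where 0.818% of all tested genes did. In 0 of the 31 did the genotypes part without overlap, which happened in 1.08% of all tested genes. The standard errors of these differences had a median of 0.43 and reached 1.16 for Cox7b, so that in this fit, which leaves the array sets out of account, a difference of the size seen in most of these genes was not detectable.

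By array, the same genes moved together and far. Averaged over the 31 genes, narrower arrays gave 6.77 to 6.91 and wider arrays 7.65 to 8.08. In 23 of 31 genes (74.2%) every narrower array lay below every wider one, in 1 (Atp5g1) every narrower array lay above, and in 7 the sets overlapped. Over all tested genes the narrower arrays all lay below in 26.9% and all above in 13.6%, and among the brightest 25% of tested genes, which hold 21 of the 31, they all lay below in 62.4%. The median rise from narrower to wider arrays was 1.06 (2.08-fold) for the 31, 0.48 in the brightest 25% and -0.02 over all tested genes. After a further quantile normalization, which gives all arrays 1 distribution, these medians were 0.65, 0.02 and -0.02. The sets were drawn from the spread of whole arrays, which includes these genes. A wider spread means that bright genes read higher relative to dim ones. The direction of the rise in bright genes is therefore partly set by how the sets were drawn. All 23 genes lower on every narrower array were among the 28 at or above the median level of tested genes (5.27). The comparison between the sets is a description with no test.

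**Figure D1:**
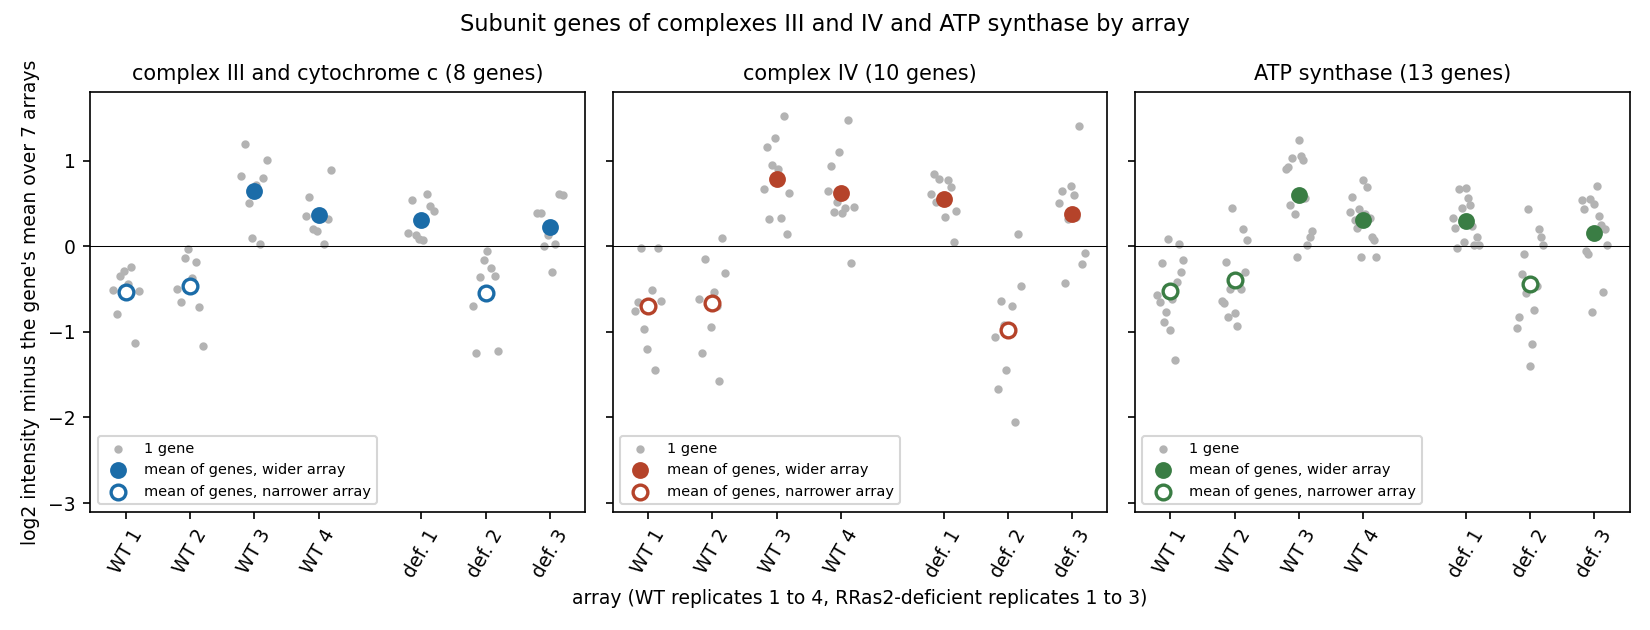
Each grey point is 1 gene on 1 array, as its log2 intensity minus that gene's mean over 7 arrays, and each large circle is the mean over the genes of a complex (filled on the 4 wider arrays, open on the 3 narrower). The circles of WT 1, WT 2 and deficient 2 lie below 0 and the other 4 above in all 3 panels, so each genotype holds arrays on both sides.

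In complex III and cytochrome c, the deficient mean exceeded the WT mean for 3 genes and was below it for 5, with a median log2 difference of -0.11. Uqcrc2, a core protein on the matrix side of complex III, gave 7.29, 7.43, 9.26 and 8.64 for the 4 WT arrays, in the order of their replicate numbers as throughout, and 8.61, 6.83 and 8.46 for the 3 deficient ones. The lowest array was deficient replicate 2 and the highest WT replicate 3, and the genotypes overlapped over most of their range (8.16 ± 0.96 against 7.97 ± 0.99, SD, n = 4 and 3). Cycs, the soluble carrier that also triggers caspases once it leaves the mitochondrion, read 7.30, 6.66, 8.83 and 8.71 in WT and 8.23, 6.60 and 8.42 in deficient cells, and its fold from narrower to wider arrays was 3.24. Its other 4 probes, 2 of which held the same values, rose by 0.16 to 2.27 from narrower to wider arrays.

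Cyc1, cytochrome c1, had the largest difference of the 31 in the plain fit, at 0.42 ± 0.50 (SE). It read 5.78, 6.19, 7.70 and 7.22 in WT and 7.38, 6.55 and 7.52 in deficient cells. Here deficient replicate 2 lay above both narrower WT arrays, whereas on the wider arrays both deficient values fell between the WT values. Uqcr11, a small subunit, read 6.25, 6.31, 6.51 and 6.51 in WT and 7.11, 6.24 and 6.51 in deficient cells, so that its difference of 0.22 ± 0.21 rested on deficient replicate 1 and was -0.020 without it. Uqcrq, the ubiquinone-binding subunit of low mass, varied least in this complex, between 5.70 and 6.16 over the 7 arrays. Uqcrc1, the other core protein, Uqcrfs1, the Rieske iron-sulfur protein, and Uqcrh, the hinge protein, had genotype differences of -0.09, -0.13 and -0.17, with SE of 0.41, 0.23 and 0.31.

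Complex IV held the genes that moved farthest with the arrays. Between genotypes 4 of its 10 genes had a positive and 6 a negative difference, with a median of -0.0097. Cox7b, a small transmembrane subunit encoded on the X chromosome, read 5.08, 4.95, 8.04 and 7.99 in WT and 7.21, 4.46 and 7.92 in deficient cells. The 3 narrower arrays stood 2.96 below the 4 wider ones on the log2 scale (7.79-fold), the widest gap of the 31 genes, and the genotype means were 6.51 ± 1.74 and 6.53 ± 1.83 (SD, n = 4 and 3). The second, dim probe of Cox7b (mean 3.34) rose by only 0.51, with overlapping sets, and had a genotype difference of 0.44. Cox6b1, which joins the monomers of the dimer on the intermembrane side, read 6.43, 6.68, 8.88 and 8.72 in WT and 8.14, 6.17 and 8.32 in deficient cells. Cox5a, which sits on the matrix side, followed the same order of sets with a 4.26-fold gap.

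Cox7c, another small transmembrane subunit, was the opposite case and read 4.02, 4.14, 4.18 and 3.83 in WT and 4.08, 4.18 and 3.83 in deficient cells. Every array gave it a signal close to the dim-gene limit of 3.48, and neither genotype nor array set parted its values. Cox5b had the lowest difference of the 31, at -0.32 ± 0.30 (SE), from 8.77, 8.64, 9.10 and 9.19 in WT and 9.31, 8.14 and 8.36 in deficient cells. Deficient replicates 2 and 3 were its lowest arrays and deficient replicate 1 its highest. Its second, dim probe had a difference of 0.16, of opposite sign. Cox4i1, the widespread isoform of the subunit that binds ATP, and Cox8a, the smallest subunit, lay lower on every narrower array, by 1.42 and 0.83, with genotype differences of 0.03 ± 0.56 and -0.08 ± 0.36 (SE).

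Cox7a2 and Cox7a2l are related proteins of the VIIa family, of which Cox7a2 belongs to complex IV itself and Cox7a2l links complex III to complex IV in supercomplexes. Cox7a2 read 6.28, 6.49, 7.93 and 7.41 in WT and 7.36, 6.07 and 7.62 in deficient cells. Cox7a2l read 7.28, 7.10, 8.12 and 8.24 in WT and 8.56, 7.10 and 8.13 in deficient cells. Both were lower on every narrower than on every wider array, by 1.30 and 1.11, and their genotype differences were -0.01 ± 0.53 and 0.25 ± 0.43 (SE).

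**Figure D2:**
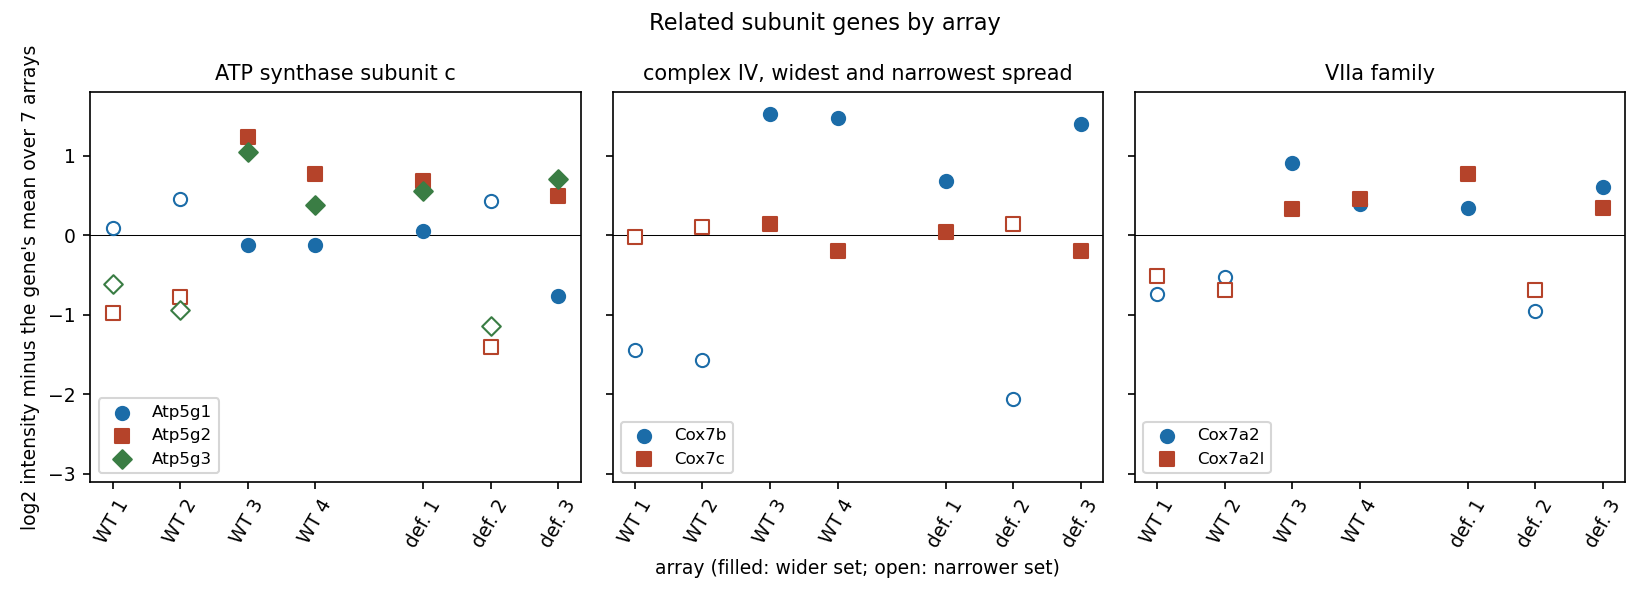
Log2 intensity minus the gene's mean over 7 arrays for the subunit c genes of ATP synthase, for the complex IV genes of widest and narrowest spread and for the VIIa pair, with filled points on wider and open points on narrower arrays. Open points lie below filled ones for every gene drawn except Atp5g1, where they lie above, and Cox7c, where they mix.

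For ATP synthase 7 differences were above 0 and 6 below, with a median of 0.011. In the F1 head, Atp5b, the catalytic beta subunit, differed by -0.11, Atp5a1, the alpha subunit, by -0.05, and Atp5d and Atp5e, the delta and epsilon subunits, by 0.27 and 0.26. The second probe of Atp5d differed by -0.30, so the probes of that gene disagree in sign, while both probes of Atp5e lay above 0 (0.26 and 0.34). Atp5c1, the gamma subunit that forms the rotating shaft, read 5.76, 5.78, 6.44 and 6.26 in WT and 5.93, 5.64 and 5.90 in deficient cells, a difference of -0.23 ± 0.20 (SE). Its deficient arrays lay close together, and deficient replicate 2 was below all WT arrays.

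Subunit c is encoded by 3 nuclear genes that differ in their import sequence and give the same mature protein, and the array read them differently. Atp5g2 read 8.76, 8.96, 10.98 and 10.51 in WT and 10.42, 8.34 and 10.23 in deficient cells. Atp5g3 read 6.41, 6.10, 8.08 and 7.41 in WT and 7.59, 5.90 and 7.74 in deficient cells. Both followed the array sets, with 3.60-fold and 2.97-fold gaps, and overlapped between genotypes. Atp5g1 read 4.39, 4.75, 4.18 and 4.18 in WT and 4.35, 4.73 and 3.54 in deficient cells, where the 3 narrower arrays were highest and deficient replicate 3 lowest. Genotype differences were -0.14 ± 0.74 for Atp5g2, 0.08 ± 0.63 for Atp5g3 and -0.17 ± 0.30 for Atp5g1 (SE).

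Among the other Fo and stalk genes, Atp5k had the lowest p of the 31 in limma, at an adjusted p of 1.00. It encodes subunit e, which helps ATP synthase form dimers, and read 8.26, 8.26, 8.67 and 8.64 in WT and 8.67, 8.67 and 8.76 in deficient cells. WT replicates 1 and 2 lay below the other 5 arrays, and the difference was 0.24 ± 0.14 (SE). Atp5o, the stalk subunit that confers oligomycin sensitivity, varied least of all ATP synthase genes, between 5.19 and 5.53. Atp5h and Atp5j, stalk subunits d and F6, lay lower on every narrower array, by 1.47 and 0.80, and Atp5j2, subunit f of Fo, lay between 3.78 and 4.52 with overlapping sets. Their genotype differences were 0.05 ± 0.61, 0.011 ± 0.32 and -0.19 ± 0.18 (SE). Values equal to 6 decimals on more than 1 array, as in Atp5k and Atp5o, occurred in 6 of the 31 genes (19.4%, against 48.3% of all tested genes) and can arise where few probes are summarised by median polish. Atp5pb, the stalk subunit b left out of the count, read 7.54, 7.61, 9.35 and 9.03 in WT and 8.72, 7.07 and 8.80 in deficient cells, with a difference of -0.18 ± 0.63 (SE).

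Because WT had 2 narrower arrays of 4 and RRas2-deficient 1 of 3, a limma fit with the array set as a block was placed beside the plain one. In it the median standard error of the 31 genes was 0.15, and 23 of 31 (74.2%) lay below 0, with a median difference of -0.21. The share below 0 was 50.9% over all tested genes and 72.8% in the brightest 25% of them. Again none of the 31 passed (lowest adjusted p = 0.296), where 0.0124% of tested genes did. At an unadjusted p under 0.05 there were 8 of 31 (25.8%), all lower, against 6.24% of all tested genes and 13.9% of the brightest 25%.

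These 8 were Cox6b1 (-0.49 ± 0.11, SE), Atp5g2 (-0.46 ± 0.13), Atp5c1 (-0.31 ± 0.10), Uqcrc2 (-0.46 ± 0.15), Cox7b (-0.49 ± 0.17), Atp5b (-0.33 ± 0.12), Cox5a (-0.47 ± 0.17) and Cycs (-0.42 ± 0.16), and Atp5pb stood at -0.46 ± 0.10. They span complex III, the soluble carrier, complex IV and both parts of ATP synthase. On the other side of 0 in this fit were Cyc1 (0.22 ± 0.18) and Atp5k (0.20 ± 0.10), with Uqcr11, Cox7a2l, Atp5d, Atp5e, Atp5o and Cox7c at 0.01 to 0.16. The medians were -0.24 for complex III with cytochrome c, -0.23 for complex IV and -0.16 for ATP synthase.

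**Figure D3:**
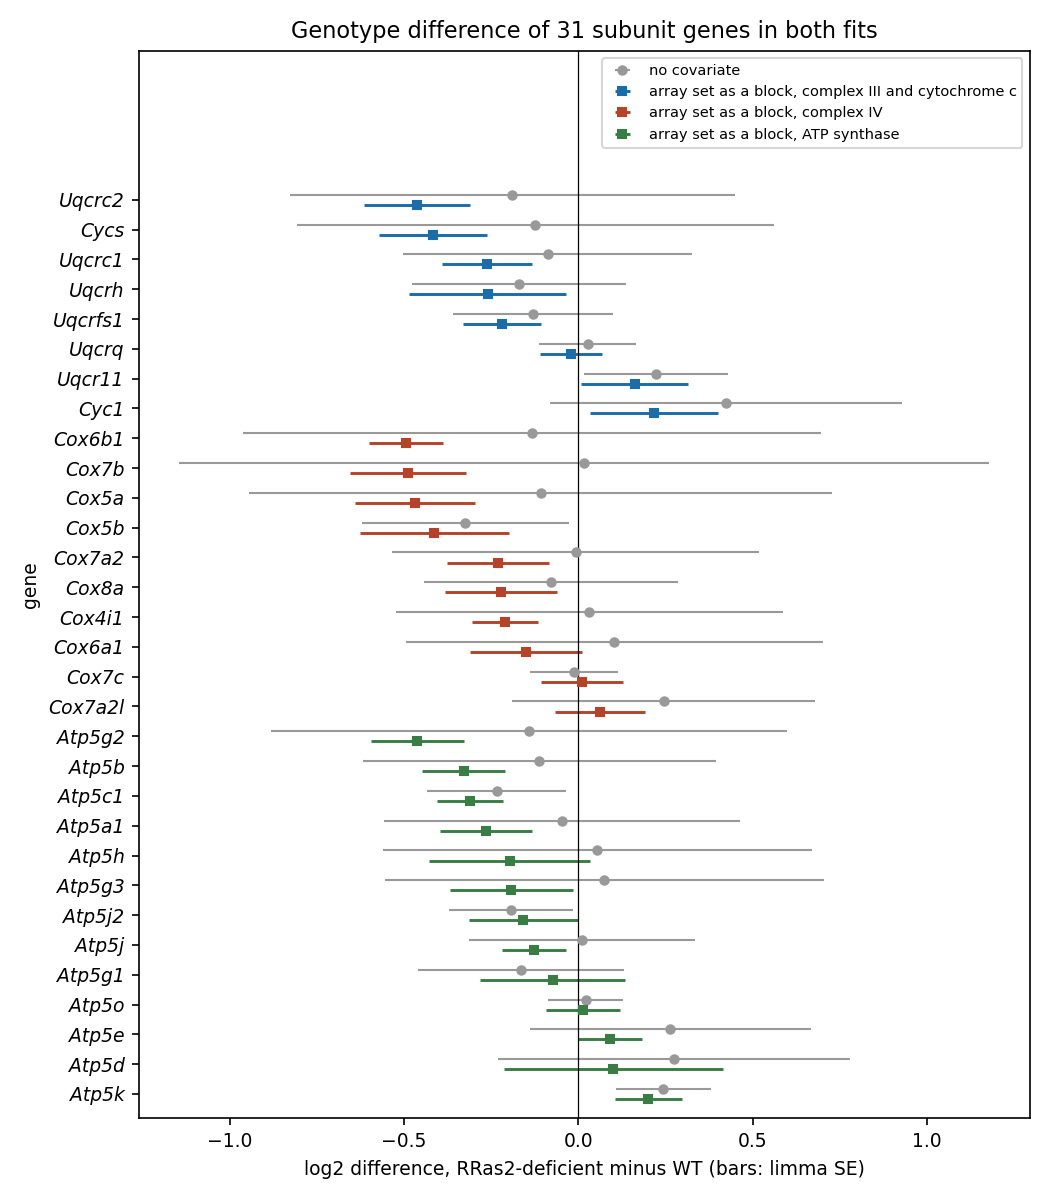
Log2 difference, RRas2-deficient minus WT, of each of 31 genes with limma's SE as bars, from the fit without a covariate (grey) and from the fit with the array set as a block (coloured by complex). Grey bars cross 0 for most genes, and in the blocked fit 23 genes lie below 0 and 8 above, with none past the adjusted threshold.

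Within each set the genotypes could be read directly, with few arrays. On the wider arrays (2 against 2) 27 of 31 genes were lower in the deficient cells, with a median of -0.29, where 53.0% of all tested genes and 74.9% of the brightest 25% were lower. On the narrower arrays (1 against 2) 20 of 31 were lower, with a median of -0.10, where 47.3% of all tested genes and 59.2% of the brightest 25% were lower. In 18 genes (58.1%) the difference was below 0 in both sets, which was so for 28.6% of tested genes. That share was not taken for the brightest 25%, which hold 21 of the 31. In each set those bright genes were lower more often than all tested genes, so 28.6% is a low yardstick here. In 2 genes the difference was above 0 in both sets (Atp5k and Atp5e), and in 11 the sets had opposite signs. Atp5d and Uqcrh differed most between them, at 0.76 and 0.35 on the narrower and -0.34 and -0.67 on the wider arrays. On the wider arrays both WT arrays also had a larger interquartile range (2.91 and 2.78) than the deficient ones (2.73 and 2.69), and its part in these counts was not tested.

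Another limma fit took each array's interquartile range itself as a covariate instead of the sets. Here 20 of the 31 genes lay above 0 and 11 below, with a median of 0.05, where 45.3% of tested genes lay below. At an unadjusted p under 0.05 there were 3 higher genes, Cyc1 (0.53 ± 0.10, SE), Atp5e (0.35 ± 0.13) and Atp5k (0.27 ± 0.09), where 2.78% of tested genes were so, and 1 lower gene, Atp5c1 (-0.19 ± 0.08), where 1.93% were. None of the 31 passed (lowest adjusted p = 0.792). Cyc1, Atp5e and Atp5k lay above 0 and Atp5c1 below 0 in all 3 fits. Other genes kept their sign as well, among them Uqcr11, Cox7a2l and Atp5d above 0 and Uqcrc2, Uqcrfs1, Uqcrh and Cox5b below. Of the 8 genes lower at an unadjusted p under 0.05 in the blocked fit, Cox7b (0.26), Cox5a (0.06) and Cox6b1 (0.044) lay above 0 here. So did Atp5g2 (0.018) and Cycs (0.012), while Atp5c1, Uqcrc2 (-0.05) and Atp5b (-0.0041) stayed below. The direction of the group as a whole, by its counts and median, changed with how the spread of the arrays was handled.

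**Figure D4:**
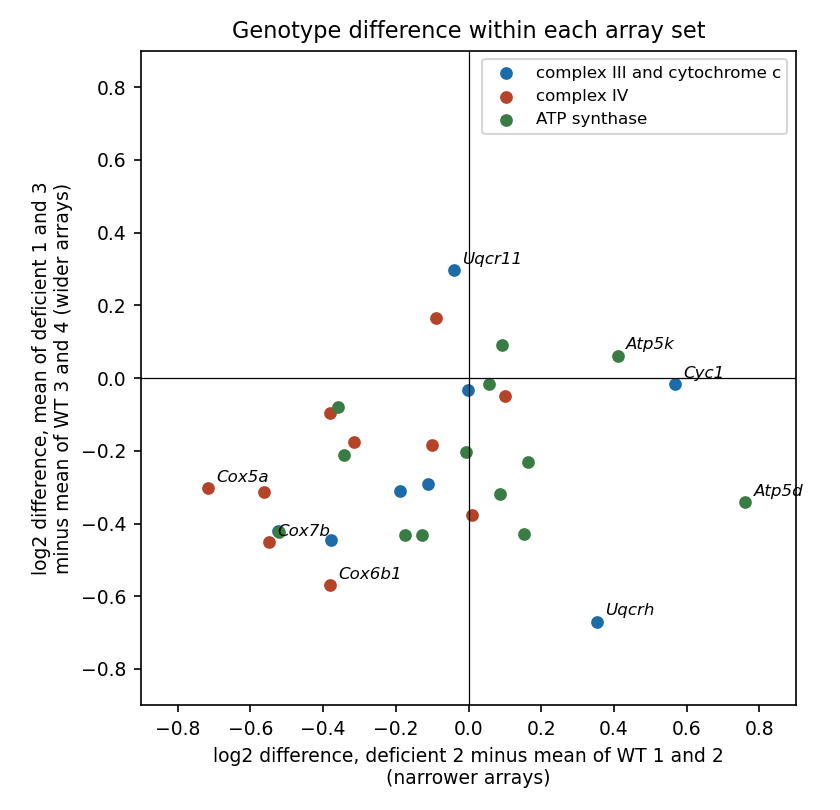
Each point is 1 gene, with its log2 difference (RRas2-deficient minus WT) on the 3 narrower arrays along x and on the 4 wider arrays along y, coloured by complex. Of the 31 points, 27 lie below 0 on y and 20 lie left of 0 on x, and 18 lie in the lower left field.

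The median of the 31 genes varied with the array left out. In the fit without a covariate leaving out WT replicate 3 gave 0.24, WT replicate 4 gave 0.12 and deficient replicate 2 gave 0.40. Each of these omissions left WT with a larger share of narrower arrays than the deficient group. Leaving out WT replicate 1 gave -0.24, WT replicate 2 gave -0.19, deficient replicate 1 gave -0.24 and deficient replicate 3 gave -0.11. The blocked fit kept the median between -0.29 and -0.11 whichever array was left out. Leaving out WT replicate 1 or 2, or deficient replicate 1 or 3, gives both genotypes equal shares of narrower arrays. In those cases both fits had the same median, so the blocked fit adds no separate check. Without deficient replicate 2 the blocked median (-0.29) was that of the wider arrays alone. In none of these fits did 1 of the 31 pass.

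Other genes of the same pathway gave no call by genotype. Their counts by array stand against 26.9% of all tested genes, and 62.4% of the brightest 25%, that were lower on every narrower array, and their blocked counts against 50.9% and 72.8% below 0. Of 32 tested nuclear genes of complex I, 25 were lower on every narrower array, 15 were higher and 17 lower in deficient cells (median -0.03), and 24 were lower with the array set as a block (median -0.14). Its genes of lowest p were Ndufb10 (0.29 ± 0.23, SE) and Ndufb7 (0.12 ± 0.10). All 4 complex II genes were lower on every narrower array, with Sdhc at -0.42 ± 0.51 and Sdhd at 0.13 ± 0.41 between genotypes. Of 25 tested factors that assemble complexes III, IV and V, 15 were lower on every narrower array and 11 were higher and 14 lower in deficient cells (median -0.03). Among them Coa5 and Taco1, of complex IV, differed by -0.21 ± 0.14 and -0.15 ± 0.09, Uqcc1 and Uqcc2, of complex III, by -0.22 ± 0.16 and 0.16 ± 0.20, and Tmem70 and Atpaf2, of ATP synthase, by -0.21 ± 0.26 and -0.04 ± 0.23. Ndufa4, now counted as a complex IV subunit, differed by -0.19 ± 0.53, and Atpif1, the inhibitor of ATP hydrolysis by the synthase, by -0.08 ± 0.09. None of these passed in limma, and none had an unadjusted p under 0.05 without a covariate.

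Of 8 listed tissue-restricted isoforms of complex IV and cytochrome c, 4 were bright enough to test, and 0 of the 4 were lower on every narrower array. All 4 were dim, and outside the brightest 25% only 15.1% of tested genes were lower on every narrower array, so this count is near that of dim genes. Cox6a2, the isoform of heart and skeletal muscle, read 5.26, 5.13, 4.71 and 4.85 in WT and 5.03, 5.58 and 5.03 in deficient cells, with all narrower arrays above all wider ones, whereas its widespread counterpart Cox6a1 lay between 11.29 and 11.92 on the wider arrays and no higher than 10.29 on the narrower ones. Cox6b2, the testis isoform, lay between 3.66 and 4.52.

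The factors known to act on such promoters did not differ between genotypes past the test. Gabpa, the ETS protein, read 6.44, 6.71, 7.95 and 7.54 in WT and 7.59, 6.09 and 7.87 in deficient cells, with the narrower arrays lowest. Yy1 showed the same order, between 8.02 and 9.11, and Nrf1 varied less, between 6.62 and 6.98, with overlapping sets. Esrra, an orphan nuclear receptor of mitochondrial genes, ran the other way, with 7.03 to 7.21 on narrower and 6.65 to 6.91 on wider arrays. The coactivator genes Pprc1 and Ppargc1b differed by -0.01 ± 0.08 and -0.02 ± 0.17 (SE) between genotypes, and Ppargc1a was under the limit for dim genes.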

How the data were processed

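The authors deposited log2 intensities, 1 per probe and array, computed by RMA with oligo per the submitters' processing notes, without versions. The platform annotation gives 1 gene symbol for 22225 of 25349 probes, several for 616 and none for 2508. Only the first kind named genes. A gene was tested where its mean reached the 25th percentile (3.48). Genotype, from the titles, was compared as RRas2-deficient minus WT using lmFit and eBayes of limma 3.58.1 under R 4.3.3, without a covariate. p-values were adjusted by Benjamini-Hochberg across 16136 genes and called at 0.05, and every SE is limma's. They measure the spread between these arrays, which may be partly technical, and 7 arrays limit their precision. The plain fit was tested on simulated data whose noise held no array sets. The blocked and covariate fits were not tested in this way.

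The genes, lists and alternatives were chosen with earlier results of these data known. Genes described array by array were, per complex, the 2 of lowest p in the plain fit and the 2 with the array set as a block, those of largest and smallest spread, any whose genotypes did not overlap, the subunit c genes and the VIIa pair. Of each other list the 2 of lowest p were named, with all regulators and Rras2, and the other members were given by range, set and difference. The sets of arrays split where interquartile ranges left their largest gap (0.197). Array weights used statmod 1.5.0. Alternatives were other filters, probe averaging, normalization, weights, blocks, a covariate and leaving out each array. Arrays correlated at 0.948 to 0.993, and 0 pairs were identical.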

Additional observations from a re-analysis of the deposited data

How the results depend on the processing

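None of the 31 genes passed under any alternative run. Over all tested genes 2 passed, and 1 with the arrays centred on their medians, 5 with array weights, 0 in a fit blocked by replicate number, from which WT replicate 4 drops out, and 0 to 2 when any 1 array was left out. With that replicate block the median of the 31 was 0.12, as it was without WT replicate 4; same-numbered arrays correlated at -0.59, 0.78 and 0.66 in their deviations, positive where both arrays lay in 1 set and negative otherwise, so whether a number marks a shared day was not tested. Of the 31 genes, none called, 10 changed sign with the replicate block, 8 with the array set as a block, 6 each with the interquartile range and with array weights, 2 each with centring and quantile normalization and 1 with probes averaged. Of those described array by array these were as follows, and the cause was not tested. With the replicate block Atp5g2 was 0.095, Atp5o -0.018, Cox6b1 0.22, Cox7a2 0.12 and Cycs 0.16. With the interquartile range as a covariate Atp5g2 was 0.018, Cox6b1 0.044, Cox7a2 0.10 and Cycs 0.012. With the array set as a block Atp5g3 was -0.19, Cox7b -0.49, Cox7c 0.010 and Uqcrq -0.020. With array weights Cox7b was -0.43, Cox7c 0.090 and Uqcrq -0.056, with centring Cox7b was -0.0021 and with quantile normalization Cox7a2 was 0.0024. Of the other genes Cox4i1 (-0.21), Cox6a1 (-0.15), Atp5h (-0.20) and Atp5j (-0.13) turned with the array set as a block, Cox5a (0.06) and Atp5a1 (0.06) with the interquartile range, and Atp5a1 (0.0050) with quantile normalization. Leaving out 1 array, with or without the set as a block (the blocked form was added after seeing the data), gave ranges of -0.43 to 0.17 for Atp5g1, -0.59 to 0.52 for Atp5g2, -0.39 to 0.66 for Atp5g3, -0.056 to 0.098 for Atp5o, -0.57 to 0.55 for Cox6b1, -0.37 to 0.47 for Cox7a2, -0.070 to 0.66 for Cox7a2l, -0.68 to 1.05 for Cox7b, -0.086 to 0.11 for Cox7c, -0.016 to 0.75 for Cyc1, -0.53 to 0.45 for Cycs, -0.020 to 0.41 for Uqcr11, -0.63 to 0.38 for Uqcrc2 and -0.066 to 0.12 for Uqcrq. Signal near the dim limit leaves the size of differences in Cox7c, Atp5g1 and Atp5j2 uncertain.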
